A study of Sus scrofa with 60 samples.

Results

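Transcripts of the mitochondrial ribosomal proteins were followed in pig liver from the fetus to the slaughter-age animal. A member is any probe set, the group of short oligonucleotides that reads a transcript on the array, whose only gene symbol in the platform annotation starts with MRPL (large subunit) or MRPS (small subunit) followed by a number. This rule found 77 of the 24123 probe sets of the Affymetrix GeneChip Porcine Genome Array, and they stand for 58 of 6765 genes: 36 genes of the large subunit with 51 probe sets and 22 genes of the small subunit with 26. A further 6 probe sets were left out because the annotation lists them with more than 1 gene (1 for MRPL22 and 5 for MRPL55). The symbols of 76 of the 77 probe sets were found under the same gene ID in RefSeq, and that of MRPS25 rests on the platform annotation alone.

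All animals were German Landrace offspring of gilts on the adequate protein (AP) diet during gestation, and all arrays hold whole liver. There were 15 fetuses at 94 dies post conceptionem (dpc), 15 newborns at 1 dies post natum (dpn), 14 piglets at 28 dpn and 16 pigs at 188 dpn, 60 arrays in all and each from an animal of its own. By the study's methods, the fetuses came from an experiment of their own with Caesarean section, fetuses and newborns were the lightest and heaviest of a litter, and an overnight fast preceded sampling at 28 and 188 dpn. Age therefore cannot be told apart from experiment, birth, feeding state or way of killing, and siblings within a stage could not be modelled because the labels name no litter.

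Mitochondria carry their own ribosome, which translates only the messages of the mitochondrial genome, all of them for subunits of the respiratory chain and ATP synthase. Its RNA is mitochondrial, whereas every one of its proteins is encoded in the nucleus, made in the cytosol and imported. Some of these proteins have bacterial counterparts and others exist only in mitochondrial ribosomes. The small subunit reads the message, and the large subunit joins amino acids and releases the chain at the inner membrane. Hepatocytes are rich in mitochondria, and the liver turns to oxidising milk fat after birth.

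Levels are given as log2(intensity + 16), and changes are the later minus the earlier stage on that scale ± SE (standard error). A gene with several probe sets is represented by the one with the highest mean over all arrays. A gene was called changed at a Benjamini-Hochberg adjusted p below 0.05 in limma, adjusted over all probe sets tested. All 58 genes passed the filter on low values in every comparison, and 71 of the 77 probe sets did so over the 4 stages. Unless a sentence counts probe sets, counts of genes rest on the representing probe set. Each probe set binds its target differently, so levels of single genes were not ranked against each other.

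The arrays had been scaled to a trimmed mean near 500, and under this scaling the array median fell with age, from 7.53 ± 0.04 (SD, n = 15) in fetuses and 7.36 ± 0.09 (n = 15) in newborns to 7.04 ± 0.07 (n = 14) in piglets of 28 dpn and 6.98 ± 0.07 (n = 16) in pigs of 188 dpn. Across probe sets, which are not independent replicates, arrays of a stage correlated with r between 0.894 and 0.973. The actin control's 3' over 5' signal, a log2 ratio that is higher where transcripts are cut short, lay between 1.54 and 2.85 in fetuses and 1.14 and 2.23 in newborns. It lay between 2.85 and 4.42 in piglets of 28 dpn and 3.28 and 4.64 in pigs of 188 dpn, and its part in the results was not tested beyond the fits named below. The same ratio of the GAPDH control ordered the stages otherwise and was highest in fetuses (0.81 to 1.30). GAPDH gave 0.16 to 0.66 in newborns, 0.65 to 0.97 at 28 dpn and 0.55 to 0.86 at 188 dpn, and was not used as a covariate. No hepatocyte marker was near background at any stage, and their summed level lay between 18.5 and 19.5 in all animals, but 9 of the 11 fell from 1 to 28 dpn (median -0.46) and 9 rose from 28 to 188 dpn (median 0.30). The summed level of 6 macrophage markers did not overlap between 1 dpn (13.9 to 14.7) and 28 dpn (14.9 to 15.7). Of these markers 3 rose, 1 fell and 2 were not called from 1 to 28 dpn, and 5 fell from 28 to 188 dpn. From 94 dpc to 1 dpn all 6 erythroid markers fell (range of the summed level 13.3 to 15.5 against 10.4 to 12.3), and over the whole time from 94 dpc to 188 dpn all 9 tested markers of dividing cells fell (12.4 to 13.7 against 9.54 to 10.2). By then 7 of the 10 dividing-cell markers on the array were near background. All 6 neutrophil markers and both tested skeletal muscle markers also fell from 94 dpc to 1 dpn. Fewer cells of a type and less RNA per cell cannot be told apart in whole liver, and the part of these shifts in the results on the ribosomal proteins was not tested.

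Under the deposited scaling the mean level of the members was lowest in the fetus and differed little between the 3 stages after birth, and relative to the array median it was also higher at 28 and 188 dpn than at 1 dpn. Over the 36 large-subunit genes the mean per animal was 10.19 ± 0.08 (SD) in fetuses, 10.50 ± 0.13 in newborns, 10.53 ± 0.08 in piglets of 28 dpn and 10.50 ± 0.06 in pigs of 188 dpn. Over the 22 small-subunit genes it was 9.73 ± 0.05, 9.97 ± 0.13, 9.98 ± 0.10 and 9.95 ± 0.07. Fetuses did not overlap with piglets of 28 dpn or pigs of 188 dpn in the large-subunit mean, with a highest fetal value of 10.34 and lowest values of 10.41 and 10.42. In the small-subunit mean they overlapped with both, with a highest fetal value of 9.84 and lowest values of 9.81 and 9.80. The mean of all members minus the array median was 2.49 ± 0.08 in fetuses, 2.94 ± 0.19 in newborns, 3.27 ± 0.14 in piglets of 28 dpn and 3.30 ± 0.10 in pigs of 188 dpn. All genes tested shared the shift from 1 to 28 dpn: with arrays centred on their median their median change was 0.28, and that of the members relative to it 0.02. From 94 dpc to 1 dpn these values were 0.11 and 0.31. The difference of the large-subunit from the small-subunit mean within an animal, which can be read for its course only and not for its height, was 0.46 ± 0.06, 0.53 ± 0.07, 0.55 ± 0.07 and 0.55 ± 0.06, with ranges that overlapped at all stages (0.37 to 0.57 in fetuses, 0.43 to 0.67 at 188 dpn). Newborns were the most variable: the median SD between animals of a member gene was 0.26 in newborns, 0.19 in fetuses, 0.23 in piglets of 28 dpn and 0.24 in pigs of 188 dpn, against 0.34, 0.25, 0.28 and 0.31 for all genes in the same order.

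**Figure D1:**
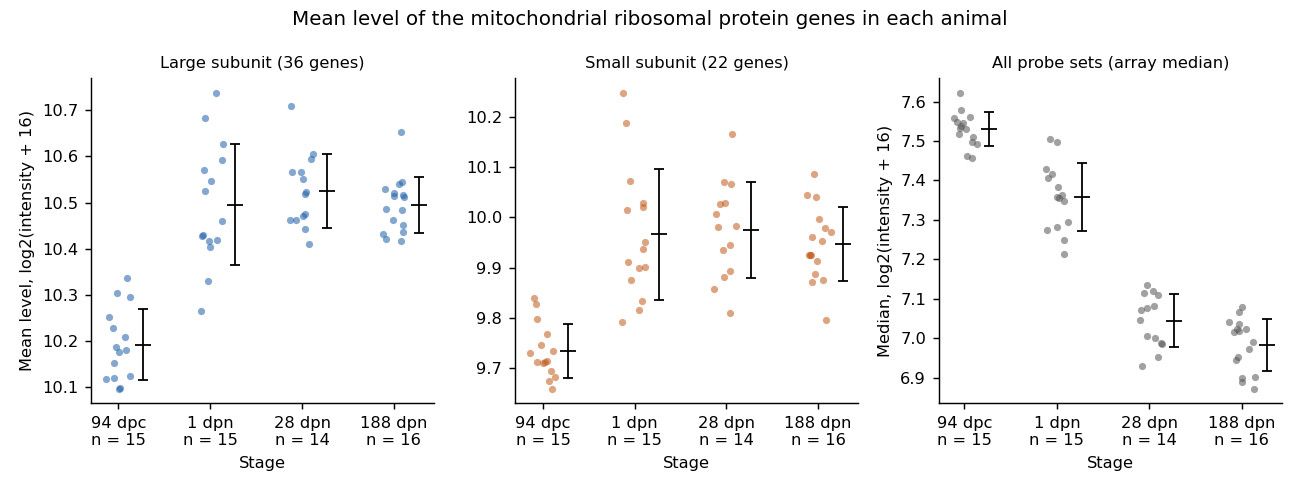
Mean level of the large-subunit genes, mean level of the small-subunit genes and array median in each animal, in log2(intensity + 16), by stage; each point is 1 animal and the bar beside the points is the mean ± SD. The large-subunit means of 94 dpc (10.10 to 10.34) lie below those of 28 dpn (10.41 to 10.71), whereas the array median goes from 7.53 to 6.98. The small-subunit means of 94 dpc (9.66 to 9.84) and 28 dpn (9.81 to 10.17) overlap.

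The single genes went different ways. Stage mattered in 55 of the 58 genes by limma's moderated F over all 4 stages, where the background is 94.6% of all genes tested, and the remaining 3 were MRPL16 (adjusted p = 0.067), MRPL17 (adjusted p = 0.10) and MRPS23 (adjusted p = 0.14). The stage means of a member spanned a median of 0.66, against 0.96 for all genes, and 16 of the 58 (27.6%) spanned at least 2-fold against 47.4% of all genes. Small-subunit genes had the wider spans, with 9 of 22 at 2-fold or more and a median of 0.88, where the large subunit had 7 of 36 and a median of 0.59 (difference not tested). Subunits go by symbol in all counts here. MRPS30, which is among the 9, and MRPS36 are therefore counted as small subunit, although their proteins are assigned elsewhere, as described below. The highest stage mean was that of 188 dpn in 24 genes, 1 dpn in 18, 94 dpc in 8 and 28 dpn in 8, and the latter 8 all belonged to the large subunit. The lowest was that of 94 dpc in 27 genes, 188 dpn in 18, 1 dpn in 8 and 28 dpn in 5. Among all genes tested, 94 dpc was the highest stage in 37.7% and the lowest in 28.7%. For 1 dpn these shares were 22.2% and 21.5%, for 28 dpn 16.5% and 13.7%, and for 188 dpn 23.6% and 36.1%.

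**Figure D2:**
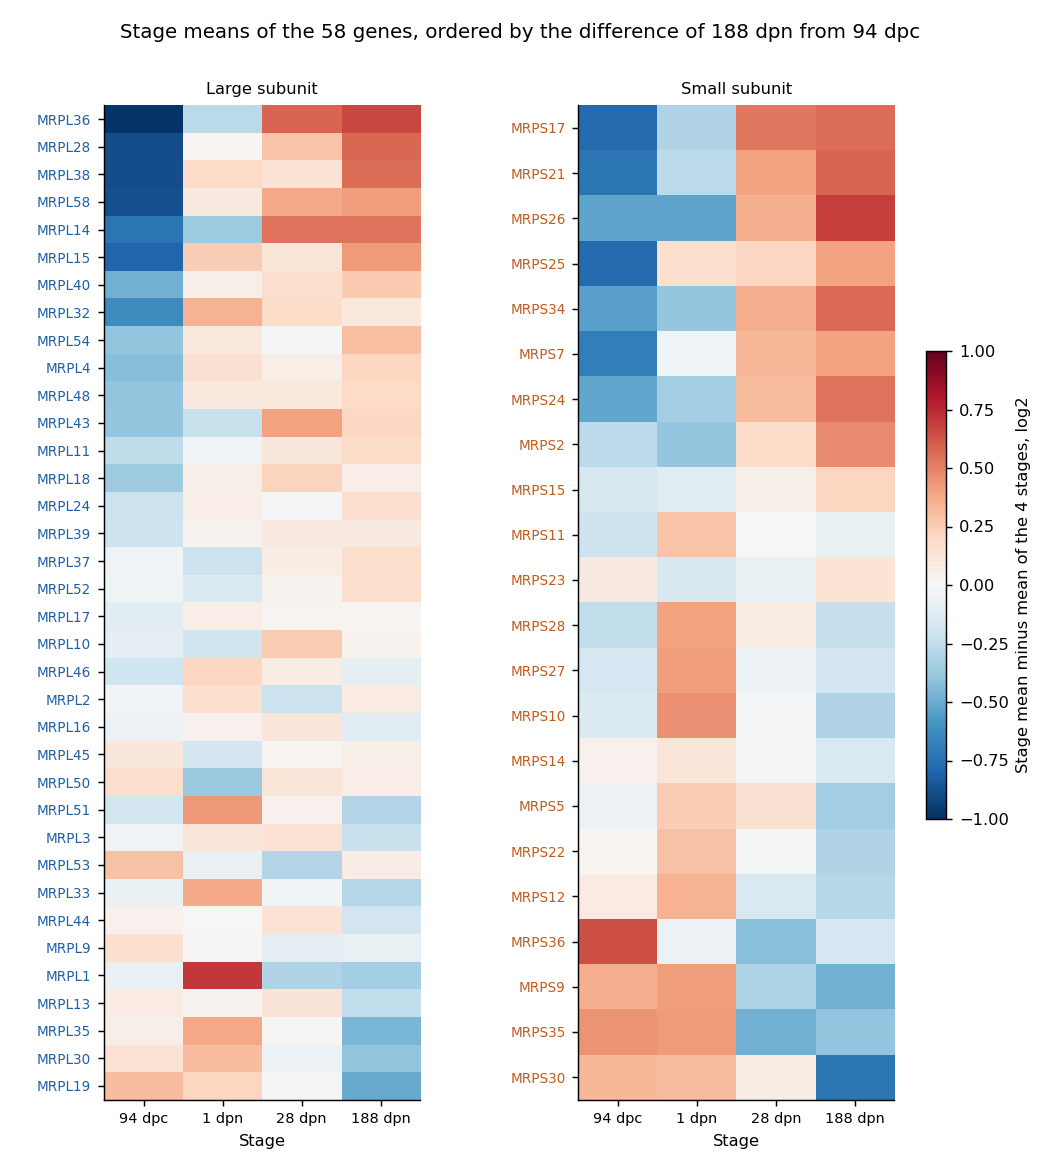
Stage means of the 36 large-subunit and 22 small-subunit genes as colour, each minus the mean of the gene's 4 stages (log2), with genes ordered from the largest rise to the largest fall between 94 dpc and 188 dpn. Genes at the top are lowest in the fetus (MRPL36 at 9.38 against 11.03 at 188 dpn), most of those at the bottom lowest at 188 dpn (MRPS30 at 8.12 against 9.17 at 94 dpc), and a group between them is highest at 1 dpn.

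The comparison of 94 dpc with 1 dpn spans late gestation as well as birth, and changes in these cannot be told apart. Its changes are called changes around birth here. Most called members rose: 31 of 58 genes, against a background of 29.8% of 5206 genes, while 4 fell against a background of 35.6%. Both subunits took part, with 20 of 36 large-subunit genes rising and 3 falling, and 11 of 22 small-subunit genes rising and 1 falling. Their median changes were 0.26 and 0.22, where the median of all genes was -0.06. In 7 genes every newborn lay above every fetus (background 7.05%), namely MRPL15, MRPL28, MRPL32, MRPL38, MRPL51, MRPL58 and MRPS25, and no gene had all newborns below all fetuses (background 5.78%). By the representing probe sets MRPL38 and MRPL15 changed at least 2-fold (background 13.2%), and so did both further probe sets of MRPS12. By probe set, 39 of 71 rose and 6 fell, with a background of 23.9% and 41.1%.

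MRPL38, a protein without bacterial counterpart in the central protuberance of the large subunit, read 9.84, 10.07 and 10.41 in fetuses and 10.71, 11.22 and 11.54 in newborns (lowest, median and highest animal). The stages did not overlap, and the rise was 1.08 ± 0.08 (2.11-fold, adjusted p = 1.2e-12). MRPL15, which has a bacterial counterpart, read 9.61, 10.00 and 10.47 in fetuses and 10.64, 11.05 and 11.61 in newborns, a rise of 1.04 ± 0.10 (adjusted p = 1.3e-10). No fetus reached the lowest newborn in either gene. MRPL32, whose precursor is cut by the m-AAA protease after import, read 7.97, 8.40 and 8.68 in fetuses and 8.72, 9.35 and 9.89 in newborns, a rise of 0.98 ± 0.10 (adjusted p = 1.7e-10). MRPL58, also known as ICT1, a peptidyl-tRNA hydrolase that became a fixed part of this ribosome, read 8.96, 9.22 and 9.48 in fetuses and 9.56, 10.22 and 10.57 in newborns and rose by 0.97 ± 0.09 (adjusted p = 1.5e-11). MRPL28 rose by 0.90 ± 0.09 and MRPL51 by 0.62 ± 0.08, again with no overlap.

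In the small subunit the largest rise was that of MRPS25, with 9.72, 10.05 and 10.21 in fetuses and 10.29, 10.95 and 11.75 in newborns (0.95 ± 0.11, adjusted p = 1.0e-08). Newborns were also far more scattered in this gene, with an SD of 0.41 against 0.15. MRPS7 of the small-subunit head rose by 0.65 ± 0.09, MRPS28 by 0.65 ± 0.09 and MRPS10 by 0.59 ± 0.08, and in these 3 the stages overlapped. MRPS28 read 8.89, 9.38 and 9.81 in fetuses and 9.66, 10.07 and 10.36 in newborns.

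The 4 falling genes were MRPL50, MRPL53, MRPL45 and MRPS36. MRPL50 read 8.96, 9.36 and 9.67 in fetuses and 7.87, 8.93 and 9.50 in newborns, so that the lowest newborns lay more than 1 log2 unit below every fetus while others lay among the fetuses (-0.54 ± 0.13, adjusted p = 0.00042). MRPL53 changed by -0.37 ± 0.09, and MRPL45, which faces the membrane at the exit of the peptide tunnel, by -0.30 ± 0.09. MRPS36 carries a ribosomal name, but the protein is now assigned to the 2-oxoglutarate dehydrogenase complex of the citric acid cycle. It read 7.44, 8.19 and 8.53 in fetuses and 6.58, 7.46 and 8.28 in newborns, a change of -0.70 ± 0.14 (adjusted p = 6.8e-05), and was the only small-subunit symbol to fall. With each array centred on its median, MRPL50 and MRPS36 alone fell and 42 genes rose, with a background of 24.7% and 39.6%. Quantile normalization gave 31 rises and 7 falls (background 34.5% and 30.0%), and the actin ratio as a covariate 29 and 3 (background 25.1% and 29.8%).

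**Figure D3:**
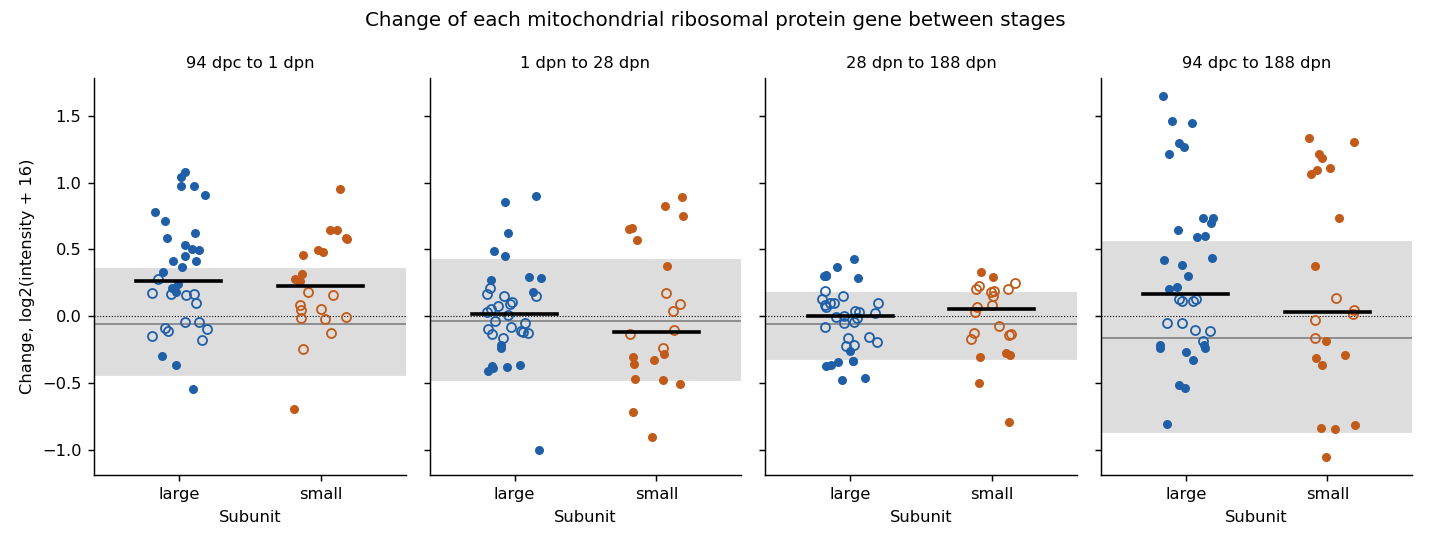
Change of each gene on the log2(intensity + 16) scale in the 3 consecutive comparisons and between 94 dpc and 188 dpn, by subunit; filled points passed the test, open points did not, black lines are subunit medians, the grey line is the median of all genes and the grey band their quartiles. From 94 dpc to 1 dpn the subunit medians are 0.26 and 0.22, and between 94 dpc and 188 dpn the changes run from -1.05 (MRPS30) to 1.64 (MRPL36).

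Between 1 and 28 dpn, the suckling period, the members divided much as all genes did: 16 genes (27.6%) rose and 17 (29.3%) fell. There were 9 up and 8 down in the large subunit and 7 up and 9 down in the small. The background was 32.2% rising and 35.7% falling, and the member median was -0.01 against -0.03 for all genes. By probe set 16 of 71 rose and 24 fell (background 28.5% and 39.0%). By the representing probe sets MRPL1 changed at least 2-fold (background 15.9%), and no gene had all piglets of 28 dpn below all newborns (background 5.83%). Further probe sets of MRPL35 (-1.15) and MRPS9 (-0.79) had no overlap and were lower at 28 dpn. The split depends on the scaling. Centring each array on its median moved the median of all genes from -0.03 to 0.28 and left 31 members rising and 3 falling (background 50.8% and 19.6%), whereas quantile normalization gave 15 and 16 (background 37.2% and 31.4%). Relative to all genes the member median was 0.02 under the deposited scaling, which centring cannot alter, and -0.04 both under quantile normalization and with the actin ratio as a covariate.

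Rises in the suckling period were led in the large subunit by MRPL14 and MRPL36. MRPL14, which sits at the face that meets the small subunit, read 10.37, 10.93 and 11.41 in newborns and 11.33, 11.83 and 12.31 at 28 dpn, a rise of 0.90 ± 0.11 (adjusted p = 3.7e-08) with a narrow overlap. MRPL36, a small zinc-binding protein, read 9.37, 10.12 and 10.66 in newborns and 10.60, 10.98 and 11.21 at 28 dpn (0.85 ± 0.11, adjusted p = 5.9e-08). MRPL43 rose by 0.62 ± 0.10. MRPL50, which had been lower in newborns than in fetuses, rose by 0.49 ± 0.14. Both comparisons of MRPL50 share the newborn animals.

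Small-subunit rises were led by MRPS26, which has no bacterial counterpart and read 10.11, 10.47 and 11.29 in newborns and 11.00, 11.44 and 11.78 at 28 dpn (0.89 ± 0.11, 1.86-fold, adjusted p = 2.0e-08). Fetuses had read 10.09, 10.59 and 10.97, so the level of MRPS26 was flat around birth (-0.01 ± 0.11). MRPS17 rose by 0.82 ± 0.13 and MRPS34, on which the stability of the small subunit depends, by 0.75 ± 0.11. MRPS21 was the only gene in which all piglets of 28 dpn lay above all newborns by its representing probe set (background 5.75%), with 11.16, 11.45 and 11.68 in newborns and 11.79, 12.10 and 12.44 at 28 dpn (0.66 ± 0.08, adjusted p = 3.7e-08). MRPS24 rose by 0.66 ± 0.10.

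The deepest fall in the suckling period was that of MRPL1, the protein of the stalk beside the site where tRNA leaves the ribosome. MRPL1 read 8.94, 9.37 and 9.78 in fetuses, 9.70, 10.10 and 10.83 in newborns and 8.32, 9.15 and 10.29 at 28 dpn. It was higher in newborns than in fetuses by 0.78 ± 0.12 (adjusted p = 6.6e-07) and lower at 28 dpn than in newborns by 2.01-fold (-1.01 ± 0.15, adjusted p = 6.4e-07), and both comparisons use the same newborns. A single piglet of 28 dpn, at 10.29, lay among the newborns. MRPL33, MRPL51, MRPL35 and MRPL2 fell by 0.41 ± 0.08, 0.39 ± 0.09, 0.38 ± 0.08 and 0.38 ± 0.09.

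MRPS35 read 7.85, 8.55 and 9.16 in newborns and 7.15, 7.82 and 8.17 at 28 dpn, a change of -0.91 ± 0.12 (adjusted p = 1.2e-07). MRPS9, which has a bacterial counterpart, read 9.07, 9.58 and 10.05 in newborns and 8.26, 8.90 and 9.15 at 28 dpn (-0.72 ± 0.10, adjusted p = 1.4e-07). In both genes a single newborn, the lowest, lay within the range of 28 dpn. MRPS12, which lies at the decoding centre, fell by 0.51 ± 0.11 and MRPS10 by 0.48 ± 0.09. MRPL1, MRPS9 and MRPS35 were the 3 falls still called when arrays were centred on their median. With the actin ratio as a covariate, whose values do not overlap between these stages, 4 members rose (MRPL10, MRPL36, MRPL43 and MRPS26) and 7 fell (background 11.7% and 12.8%), again with MRPL1, MRPS9 and MRPS35 among them.

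**Figure D4:**
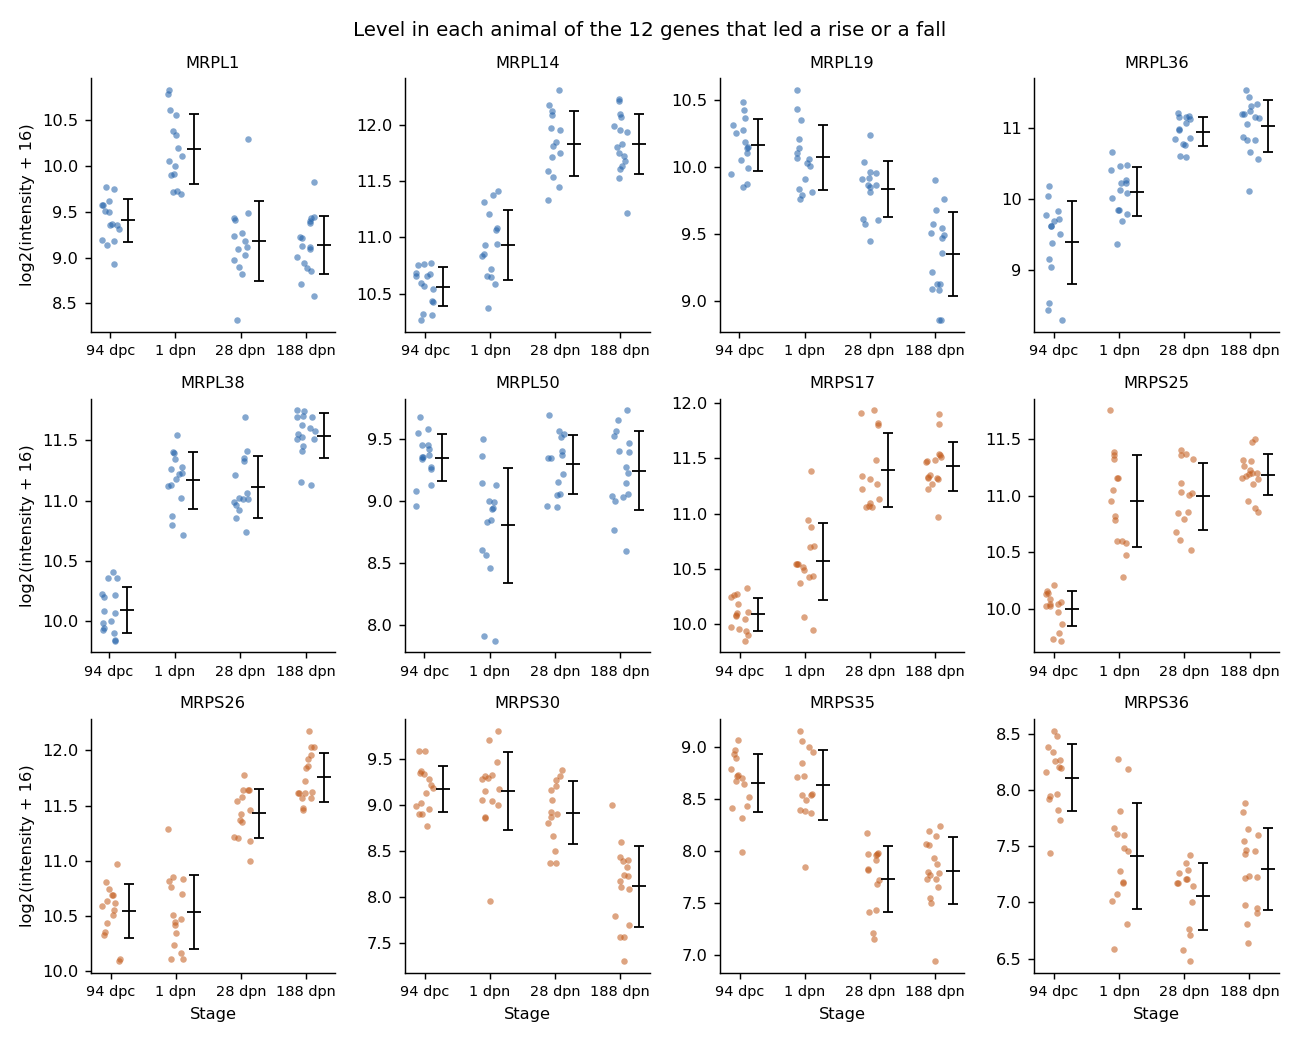
Level in each animal, in log2(intensity + 16), of the 12 genes that had the largest called rise or fall of their subunit in at least 1 comparison; each point is 1 animal, with the mean ± SD beside the points, and vertical axes differ between genes. MRPL1 is highest at 1 dpn (mean 10.19 against 9.41, 9.18 and 9.14 at the other stages), MRPS26 stays at 10.54 until 1 dpn and reaches 11.76 at 188 dpn, and MRPS30 goes from 9.17 at 94 dpc to 8.12 at 188 dpn.

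From 28 to 188 dpn, between weaning and slaughter, the members changed least. In this comparison 8 genes rose and 13 fell, where the background was 17.5% and 28.3%, and no member changed 2-fold or had stages that did not overlap (background 4.09% for 2-fold, and 0.704% and 0.913% for stages apart upward and downward). The large subunit had 6 rises and 8 falls and the small subunit 2 and 5, and the member median was 0.01 against -0.06 for all genes. By probe set 8 of 69 rose and 16 fell (background 15.5% and 24.1%). With arrays centred on their median 14 rose and 10 fell (background 21.7% and 23.0%), and all 10 were among the 13. Quantile normalization gave 10 rises and 11 falls (background 18.1% and 24.6%), and the actin covariate 9 and 11 (background 14.8% and 24.5%).

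MRPS30 had the largest change of this period. It is a small-subunit protein by name, but in structures of the ribosome it lies in the large subunit. MRPS30 read 8.37, 8.92 and 9.38 at 28 dpn and 7.30, 8.20 and 9.00 at 188 dpn, a fall of 0.80 ± 0.14 (1.74-fold, adjusted p = 3.7e-05). MRPS5 read 9.02, 9.22 and 9.89 at 28 dpn and 8.62, 8.70 and 9.07 at 188 dpn and fell by 0.50 ± 0.08 (adjusted p = 1.0e-05). Only the highest pigs of 188 dpn reached the lowest ones of 28 dpn in MRPS5. MRPS28 fell by 0.31 ± 0.08, MRPS22 by 0.29 ± 0.11 and MRPS10 by 0.28 ± 0.11.

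MRPL19, on the intersubunit side of the large subunit, read 9.45, 9.87 and 10.24 at 28 dpn and 8.86, 9.42 and 9.90 at 188 dpn, a fall of 0.48 ± 0.10 (adjusted p = 0.00028). MRPL35 fell by 0.47 ± 0.10, MRPL3 by 0.37 ± 0.11, MRPL13 by 0.37 ± 0.10, and MRPL44, which carries a ribonuclease III-like fold, by 0.34 ± 0.07. The rises ran from 0.29 to 0.42: MRPL38 by 0.42 ± 0.09, MRPL53 by 0.37 ± 0.07, MRPS26 by 0.33 ± 0.09, MRPL54 by 0.31 ± 0.10, MRPL2 by 0.30 ± 0.07, MRPL15 by 0.30 ± 0.08, MRPL28 by 0.29 ± 0.07 and MRPS2 by 0.29 ± 0.09. The 7 genes MRPL9, MRPL16, MRPL17, MRPL24, MRPS14, MRPS15 and MRPS23 passed the test in none of the consecutive comparisons. The share of all genes without such a call is not given here. Of these genes MRPL9, MRPL24, MRPS14 and MRPS15 were called between 94 dpc and 188 dpn.

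Over the whole time from 94 dpc to 188 dpn, 27 genes rose and 17 fell (background 34.7% and 47.7%), with 18 and 9 in the large subunit and 9 and 8 in the small. The median was 0.13, against -0.17 for all genes, or 0.17 for the large and 0.03 for the small subunit. At least 2-fold changes were found in 14 genes (background 35.7%), 6 of the large and 8 of the small subunit. All pigs of 188 dpn lay above all fetuses in 13 genes (background 15.0%): MRPL14, MRPL15, MRPL28, MRPL38, MRPL40, MRPL58, MRPS7, MRPS17, MRPS21, MRPS24, MRPS25, MRPS26 and MRPS34. By the representing probe sets all of them lay below in no gene (background 20.1%), but second probe sets of MRPL3 and MRPS9 did so. By probe set 28 of 70 rose and 22 fell (background 27.9% and 53.4%). Array centring moved the median of all genes to 0.38 and gave 50 rises and 5 falls (background 55.7% and 27.9%), and quantile normalization gave 28 and 10 (background 43.5% and 38.9%). Relative to all genes the median change of the members was 0.29 under the deposited scaling, 0.26 with the actin ratio as a covariate and 0.11 under quantile normalization. The actin ratios of fetuses and pigs of 188 dpn do not overlap, so the fit with that covariate cannot set stage fully apart from the ratio.

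The 9 rises of the small subunit ran from 0.37 (MRPS15) and 0.74 (MRPS2) to 1.33, and with arrays centred on their median 17 of its genes rose and 4 fell. MRPS17 read 9.85, 10.09 and 10.33 in fetuses and 10.97, 11.41 and 11.90 at 188 dpn, a rise of 1.33 ± 0.07 (2.52-fold, adjusted p = 1.9e-17). MRPS21 rose by 1.30 ± 0.09, MRPS26 by 1.21 ± 0.09, MRPS25 by 1.18 ± 0.07, MRPS34 by 1.11 ± 0.09, MRPS7 by 1.09 ± 0.07 and MRPS24 by 1.06 ± 0.09. At the other end MRPS30 changed by -1.05 ± 0.13 (2.07-fold lower, adjusted p = 3.5e-09), MRPS9 by -0.84 ± 0.09, MRPS35 by -0.84 ± 0.11 and MRPS36 by -0.81 ± 0.12. MRPS35 read 7.99, 8.70 and 9.07 in fetuses and 6.94, 7.79 and 8.25 at 188 dpn. Between these ends stood MRPS10, MRPS11, MRPS23, MRPS27 and MRPS28, whose changes between -0.17 and 0.13 did not pass the test.

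MRPL36 rose most, by 1.64 ± 0.17 (3.13-fold, adjusted p = 6.9e-11), from 8.29, 9.61 and 10.19 in fetuses to 10.11, 11.15 and 11.54 at 188 dpn. It was also the member that varied most among fetuses (SD 0.58), and its stages overlapped through a single pig of 188 dpn at 10.11. MRPL28 read 9.93, 10.25 and 10.67 in fetuses and 11.41, 11.72 and 11.98 at 188 dpn (1.46 ± 0.08, adjusted p = 1.9e-17). Its consecutive changes, which share animals, were 0.90, 0.27 and 0.29, all called. MRPL38 rose by 1.45 ± 0.07, MRPL58 by 1.30 ± 0.07, MRPL14 by 1.27 ± 0.09 and MRPL15 by 1.21 ± 0.09. The leading falls of the large subunit were those of MRPL19 by 0.81 ± 0.10, MRPL30 by 0.53 ± 0.10, MRPL35 by 0.52 ± 0.10 and MRPL13 by 0.33 ± 0.09. With arrays centred on their median MRPL19, MRPS9, MRPS30, MRPS35 and MRPS36 still fell, and MRPL13 turned to a rise of 0.22. With the actin ratio as a covariate, whose values do not overlap between these stages, 21 genes rose, and those 5 and MRPS5 fell. The background there was 24.7% rising and 33.9% falling.

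Some members are of interest for their place in the ribosome. MRPL10 and MRPL11 form the base of the stalk that takes up elongation factors. MRPL11 was higher at 188 dpn than in fetuses by 0.43 ± 0.07 (9.85, 10.12 and 10.37 against 10.26, 10.46 and 10.83), whereas MRPL10 changed by 0.12 ± 0.09 (adjusted p = 0.18) and was called only between 1 and 28 dpn, with a rise of 0.45 ± 0.09. MRPL24 and MRPL45 lie near the exit of the peptide tunnel. MRPL24 rose by 0.38 ± 0.14 from 94 dpc to 188 dpn. This value turned to -0.14 (adjusted p = 0.72) with the actin ratio as a covariate, whose values do not overlap between these stages. MRPL45 changed by -0.05 ± 0.08 (adjusted p = 0.51), which array centring turned to 0.49 (adjusted p = 1.4e-06). MRPL44 fell by 0.24 ± 0.08, and array centring turned this to a rise of 0.31 (adjusted p = 0.00062). MRPL12, MRPL23 and the MRPS18 genes are not analysed here.

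Of the 58 genes, 44 had 1 probe set and 14 had several, with 3 at most. Probe sets of a gene did not always move together. For MRPL33, the probe set that represents the gene rose from 94 dpc to 1 dpn by 0.45 ± 0.08 while its dimmer one, near background at 1 dpn, fell by 0.73 ± 0.19 (adjusted p = 0.0010). For MRPS2, the brighter probe set rose from 1 to 28 dpn by 0.57 ± 0.10 and the dimmer fell by 0.94 ± 0.11 (adjusted p = 1.3e-08), and between 94 dpc and 188 dpn they changed by 0.74 ± 0.08 and -0.43 ± 0.13. The direction of MRPS2 thus depends on the probe set, and which part of the transcript each reads was not tested.

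Other pairs went the same way with unlike sizes. The second probe set of MRPL3 read 9.89, 10.73 and 11.04 in fetuses and 8.55, 9.22 and 9.87 at 188 dpn, a fall of 1.38 ± 0.12 without overlap, where the first changed by -0.19 ± 0.10 (adjusted p = 0.080). The second of MRPS9 fell by 1.25 ± 0.10, also without overlap, against 0.84 for the first. The rise of MRPS12 from 94 dpc to 1 dpn was 0.27 ± 0.10 in the probe set with the highest mean and 1.23 ± 0.12 in the next, whose newborns all lay above the fetuses. In MRPL2 these values were 0.18 ± 0.08 and 0.87 ± 0.08. For 6 further probe sets (of MRPL3, MRPL15, MRPL35, MRPL38, MRPL46 and MRPL52) the level was near background and no comparison was tested.

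The members can be set beside nuclear genes for subunits of the respiratory chain and ATP synthase. From 94 dpc to 1 dpn, 28 of 33 complex I genes rose and 1 fell with a median change of 0.85 (29.8% and 35.6% of all genes), and 11 of 14 ATP synthase genes rose and 0 fell with a median of 0.54. Cytochrome c oxidase genes had 5 of 7 rising and a median of 0.97, and all 6 genes of complexes II and III rose with a median of 0.64, so the members' median of 0.25 lay below those of these lists. Cytosolic ribosomal protein genes went the other way, with 32 of 35 large-subunit genes falling at a median of -0.64 and 21 of 24 small-subunit genes falling at -0.56. From 28 to 188 dpn, when 8 members rose and 13 fell, 26 of those 35 and 19 of those 24 cytosolic genes rose (17.5% of all genes). Genes of the mitochondrial genome itself are not analysed here.

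**Figure D5:**
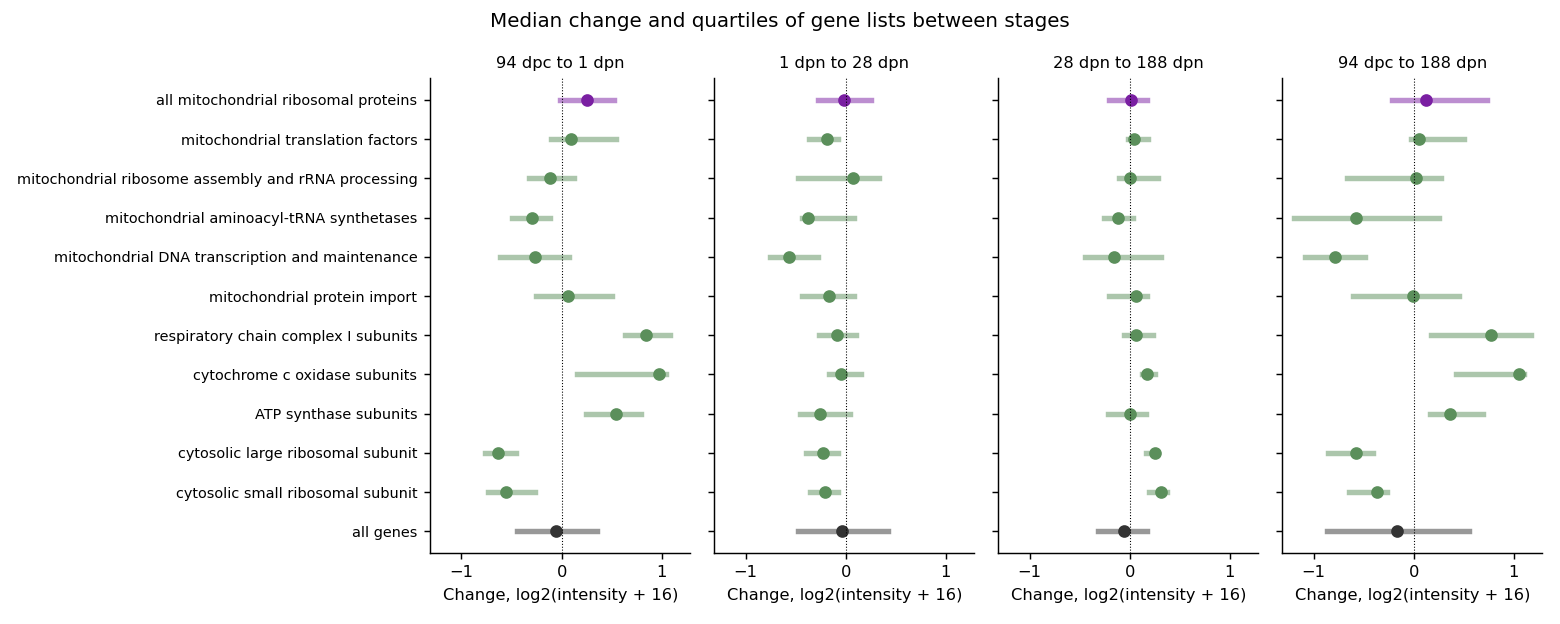
Median change (point) and quartiles (bar) of the genes of each list between stages, on the log2(intensity + 16) scale, with the mitochondrial ribosomal proteins at the top and all genes tested at the bottom. From 94 dpc to 1 dpn the members' median of 0.25 lies between those of complex I (0.85) and the cytosolic ribosomal proteins (-0.64 and -0.56).

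Among the factors that work with the ribosome, 3 of 9 tested genes of the translation factor list rose and 1 fell from 94 dpc to 1 dpn, where 29.8% of all genes rose and 35.6% fell. TUFM, the elongation factor that brings aminoacyl-tRNA, rose by 0.55, and TACO1, an activator of cytochrome oxidase translation, by 1.21 without overlap. LETM1, which is on the list but is not itself a translation factor, rose by 1.24. GFM1, the translocation factor, changed by -0.10 and fell by 0.52 from 1 to 28 dpn. In the assembly and rRNA processing list 4 of 19 genes rose and 7 fell around birth, and between 94 dpc and 188 dpn 7 rose and 6 fell, where 34.7% of all genes rose and 47.7% fell. MALSU1, which binds MRPL14 late in the assembly of the large subunit, rose by 1.22 over that time without overlap, and GRSF1, an RNA-binding protein of mitochondrial RNA granules, fell by 1.54 without overlap. Of the 4 other proteins of the ribosome, DAP3 rose by 0.33 around birth, PTCD3 and CHCHD1 fell by 0.55 and 0.29, and GADD45GIP1 changed by -0.10.

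Of 9 tested mitochondrial aminoacyl-tRNA synthetase and amidotransferase genes, 1 rose and 6 fell from 94 dpc to 1 dpn with a median of -0.29, and 3 rose and 6 fell between 94 dpc and 188 dpn with a median of -0.58. GARS, which also serves the cytosol, fell most, by 1.64, and QRSL1 by 1.46, both without overlap. Of 7 genes of mitochondrial DNA transcription and maintenance, 1 rose and 6 fell between 94 dpc and 188 dpn, among them MTPAP by 1.22. All 5 regulators of mitochondrial biogenesis fell over that time, with changes between -2.24 (MYC) and -0.35. Their median was -0.71 (PPRC1), and PPARGC1A was at -0.49. In the protein import list 9 of 22 rose and 7 fell around birth, and 8 rose and 8 fell between 94 dpc and 188 dpn, with GRPEL1 at 1.22 and TOMM70 at -1.70. Over all genes 29.8% rose and 35.6% fell around birth, and 34.7% rose and 47.7% fell between 94 dpc and 188 dpn.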

How the data were processed

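The authors deposited 1 linear intensity per probe set and array, for which the submitters' processing notes name GCOS 1.1.1. The trimmed mean (2% from each end) was close to 500 on all arrays. These are not the GCRMA values of the study's own tests. The number of arrays limits the precision. Animals were grouped by the labelled stage. Values were taken as log2(intensity + 16), and a probe set was kept if it exceeded the array median in at least 50% of the animals of 1 stage compared. Linear models were fitted in limma 3.58.1 (R 4.3.3) to the 2 stages of a comparison, and a moderated F to all 4, with p-values adjusted over all probe sets tested (12771 for 94 dpc against 1 dpn). The script was tested on simulated data. A stage mean less than 1 log2 unit above the highest Tag control was called near background. Tests are two-sided. Gene names come from the platform annotation, and RefSeq (Sscrofa11.1) was used for names only.

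The genes named are the 4 called genes of each subunit with the largest rise and the 4 with the largest fall in a comparison, members called against most of their subunit where 6 or fewer, genes whose probe sets were called in opposite directions, members without a tested probe set, a fixed set chosen for its place in the ribosome, and up to 2 genes with the largest called change of other lists. MRPL2, MRPL40, MRPS24, the further genes whose stages do not overlap, the pairs of unlike size, TUFM, GFM1, MALSU1, PPRC1, PPARGC1A and the other proteins of the ribosome were added after their values were seen. Members and lists were chosen with earlier results of these data known. Alternatives were other pseudocounts, no filter, array centring, quantile normalization, the actin ratio as a covariate, fewer arrays, 1 fit over all stages, a variance trend, and the mean of a gene's probe sets. No promoter or protein sequence was used here.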

Additional observations from a re-analysis of the deposited data

How the results depend on the processing

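With each array centred on its median, the members falling from 94 dpc to 1 dpn went from 4 to 2 (large subunit from 3 to 1). From 1 to 28 dpn the rises then went from 16 to 31 (large subunit from 9 to 21) and the falls from 17 to 3 (large from 8 to 1, small from 9 to 2), and the small-subunit median turned from -0.12 to 0.20. From 28 to 188 dpn the rises went from 8 to 14, with the small subunit at 8 rises and 3 falls instead of 2 and 5. Between 94 dpc and 188 dpn the rises went from 27 to 50 (large subunit 33, small 17) and the falls from 17 to 5 (large 1, small 4), and MRPL13, MRPL30, MRPL35, MRPL44, MRPL45 and MRPS12 turned to 0.22, 0.012, 0.029, 0.31, 0.49 and 0.18. Centring also moved the median of all genes, from -0.06 to 0.11, from -0.03 to 0.28, from -0.06 to 0.0002 and from -0.17 to 0.38 in these comparisons. Its part in the counts was not tested. In order, the background was 24.7% falling, 50.8% rising and 19.6% falling, 21.7% and 23.0%, and 55.7% and 27.9%.

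Quantile normalization gave 7 falls from 94 dpc to 1 dpn (large subunit 6, background 30.0%) and 10 falls between 94 dpc and 188 dpn (small subunit 4, background 38.9%). From 28 to 188 dpn it gave 4 rises and 3 falls in the small subunit (background 18.1% and 24.6%). With the actin ratio as a covariate, 4 members rose from 1 to 28 dpn (large 3, small 1) and 7 fell (large 3, small 4), with a background of 11.7% and 12.8%. In that fit 3 small-subunit genes fell from 28 to 188 dpn (background 24.5%). Between 94 dpc and 188 dpn 6 members fell (large 1, small 5, background 33.9%), and MRPL24 turned to -0.14. The actin ratio does not overlap between 1 and 28 dpn or between 94 dpc and 188 dpn. Without the filter 3 small-subunit genes fell from 28 to 188 dpn. With the mean of a gene's probe sets 5 members rose from 28 to 188 dpn (small subunit 1), and MRPS12 turned to 0.13 between 94 dpc and 188 dpn. The shares of all genes called without the filter and with probe set means are not given here, so those counts describe the fits only. The cause was not tested for these fits.

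The other counts stayed within 1.5 times, including all under the pseudocounts 1 and 64, the variance trend, the fit over 4 stages and the fit without 1 array per stage. Of the gene values, 773 kept their direction and side of the threshold, 37 were no longer called, 12 became called and 8 turned. No paired analysis was possible because the labels give neither litters nor replicate numbers that link animals across stages.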
